A study of Mus musculus with 2 samples.

Results

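The 10 genes described here encode CTCF, the subunits of mitotic cohesin and the factors that load cohesin onto chromatin or release it. They were taken by name from the 55143 genes to which the listed IDs belong (Ctcf, Rad21, Smc1a, Smc3, Stag1, Stag2, Nipbl, Mau2, Wapl and Pds5a), and the counts of all IDs of each gene were summed in each library. RNA-seq was performed on differentiated female germline stem cells (FGSCs) of the CD-1 mouse strain, labelled premeiotic interphase. The cells had been cultured for 3 days on a granulosa cell monolayer with 10 µM retinoic acid (RA) and 10 ng/mL BMP4, and without GDNF, EGF and LIF. There was a single condition with 2 libraries, replicates 1 and 2, each made by a Smart-seq protocol from 5 to 8 cells, so that no treated and untreated samples could be compared. The labels do not say whether the replicates came from separate cultures, so a difference between them may be technical.

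Cohesin is a ring that encloses DNA. SMC1A and SMC3 are long coiled-coil ATPases that form the ring together with the kleisin subunit RAD21, and STAG1 or STAG2 binds to RAD21 as an alternative accessory subunit. NIPBL and MAU2 load the ring and NIPBL stimulates its movement along DNA, whereas WAPL together with PDS5A or PDS5B opens the ring and releases it. CTCF is a zinc finger protein that binds a defined DNA motif and halts cohesin there, which places the bases of chromatin loops. The same ring holds sister chromatids together until anaphase, and germ cells replace several of its subunits by meiotic forms when they enter meiosis.

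Replicate 1 held 1517151 counts and replicate 2 held 12442, a 122-fold difference in depth. A single count corresponded to 0.659 CPM (counts per 1000000 counts of the library) in replicate 1 and to 80.4 CPM in replicate 2, and 3 counts, the smallest number taken as shown, to 1.98 and 241 CPM. Of 53245 protein accessions among the 129311 listed IDs, 85.4% could be placed in 1 gene from their position between annotated transcripts, since the files do not name their genes. None of the 10 germ cell markers examined, among them the defining markers Ddx4, Dazl and Pou5f1, had a count in either library on an ID of 1 gene. Of exon bases, 8.43% of Ddx4, 23.1% of Dazl and 69.2% of Pou5f1 belong to 1 transcript only. This share ran from 7.52% for Sycp3 to 71.8% for Gdf9 among the markers with an ID of 1 gene. In the paper, RT-PCR detected Stra8 and Sycp3, both in this list, in differentiated FGSCs, and Stra8 was also shown by immunofluorescence. The same RT-PCR panel covered Oct4 (Pou5f1) and Mvh (Ddx4), for which the paper's text states no result. The zeros here do not show that these genes were silent. For Ifitm3, Dppa3 and Zp3 all IDs could belong to several genes, and those of Ifitm3 held 10577 and 6 counts. Of 10 fibroblast markers, 5 reached 3 counts in replicate 1 and 3 did in replicate 2. The whole list summed to 4381 counts (Dcn with 2281, Col1a2 with 910, Pdgfra with 726, Col1a1 with 401) and to 18 counts (Col1a2 with 6, Fn1 with 5, Col3a1 with 3). The other fibroblast markers were low in replicate 1 except Col3a1 with 58: Postn had 2 counts, Vim, Thy1 and Fn1 had 1 each, and Lum had 0. Of 10 granulosa cell markers, 4 and 0 reached 3 counts, namely Kitl with 453, Fst with 229, Inhba with 26 and Nr5a2 with 3 in replicate 1. Fshr had 0 counts in replicate 1 and 2 in replicate 2, and Foxl2, Amh, Cyp19a1 and Amhr2 were at 0 in both. The ID of Inha could belong to several genes and held 0 and 1 counts. The part of other cells in the counts given here was not tested.

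In replicate 1, 7 of the 10 genes were counted: Smc3, Nipbl, Ctcf, Rad21, Smc1a, Wapl and Pds5a. Each of these 7 had at least 3 counts, whereas Stag1, Stag2 and Mau2 were listed at 0. Among 13705 protein-coding genes with no ID of doubtful gene, 47.3% had a count in replicate 1 and 36.0% had at least 3. In replicate 2, 3 of the 10 genes had a count and only Smc3 had at least 3, against 14.1% and 4.23% of the protein-coding genes. The 10 genes held 2916 counts in replicate 1, which is 1922 CPM (95% Wilson interval 1854 to 1993), and 13 counts in replicate 2, which is 1045 CPM (611 to 1787). Smc3 alone made up 61.6% and 84.6% of these counts. All intervals given here cover the counting error of reads only. PCR reads are not independent molecules, so the intervals can be too narrow for the error of molecules.

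**Figure D1:**
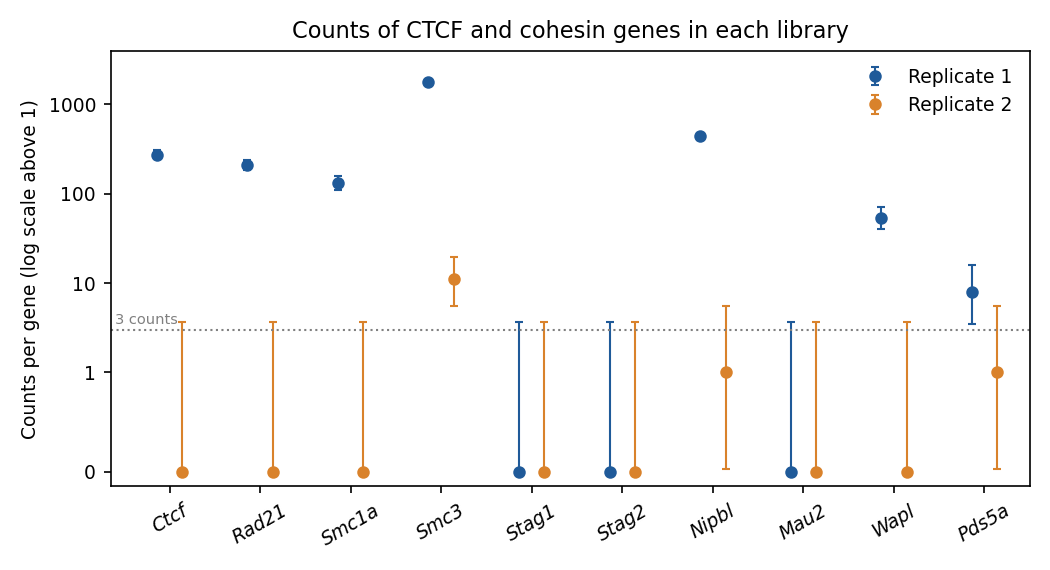
Counts of each gene in replicate 1 (blue) and replicate 2 (orange), with exact 95% Poisson intervals; the y axis is logarithmic above 1 and the dotted line marks 3 counts. Smc3 stands highest in both libraries with 1795 and 11 counts, and Stag1, Stag2 and Mau2 lie at 0 in both.

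Among the ring subunits, Smc3 had by far the most counts. This gene (chromosome 19, 53600398 to 53645833, GRCm38) was represented by 1795 counts in the deeper library, replicate 1, and by 11 in the shallower one. As FPKM, which is CPM per kilobase of exon, this was 213.5 and 159.6, and 98.8% of the protein-coding genes lay lower in replicate 1 and 99.1% in replicate 2. It was the member whose level could be read in both libraries, and the CPM of replicate 2 was 0.747 times that of replicate 1 (95% interval 0.372 to 1.34).
Rad21 (chromosome 15, 51962240 to 51991747) had 210 counts and 0 counts. Its FPKM in replicate 1 was 32.7, above 93.2% of protein-coding genes. Smc1a (chromosome X, 152016428 to 152062694), the direct partner of Smc3 in the ring, had 133 and 0 counts and an FPKM of 15.2 in replicate 1.
The 3 ring subunits thus spanned a wide range of levels in replicate 1. Smc3 was 6.53-fold above Rad21 per kilobase of exon (95% interval 5.66 to 7.57) and 14.1-fold above Smc1a (11.8 to 16.9). The distance to Smc1a depended on the length used: it was 7.59-fold (6.36 to 9.12) per kilobase of exon that belongs to 1 transcript only.

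The accessory subunits Stag1 (chromosome 9, 100597798 to 100959375) and Stag2 (chromosome X, 42149317 to 42277185) had 0 counts in both libraries, over 17 and 7 IDs. A count of 0 allows up to 3 counts on these IDs, 1.98 CPM in replicate 1 and 241 CPM in replicate 2, which is no limit on transcription of the genes. A further ID that could be of Stag2 or of a neighbouring gene was also at 0.
The loader subunit Nipbl (chromosome 15, 8290617 to 8444463) gave 441 counts in the deeper library against 1 in the other, and its FPKM of 30.9 in replicate 1 lay above 92.9% of protein-coding genes. Mau2 (chromosome 8, 70016123 to 70042734), which encodes the partner of NIPBL, was at 0 in both libraries.
The release factor Wapl (chromosome 14, 34673928 to 34747983) was counted 54 times in replicate 1, an FPKM of 5.37, and not in replicate 2. Its partner Pds5a (chromosome 5, 65605721 to 65698273) was near the limit of detection, at 8 counts and an FPKM of 0.273 in replicate 1 and a single count in replicate 2.
The insulator gene Ctcf (chromosome 8, 105636568 to 105682922) was counted 275 times in replicate 1 and 0 times in replicate 2. Its FPKM of 37.3 in replicate 1 was the second highest of the 10 genes and lay above 93.9% of protein-coding genes.
In the order of levels per kilobase of exon in replicate 1, Ctcf stood 1.14-fold above Rad21 (95% interval 0.949 to 1.37) and Rad21 1.06-fold above Nipbl (0.895 to 1.25), so these neighbours did not differ beyond counting error on this scale. Per kilobase of exon that belongs to 1 transcript only, Ctcf stood 1.90-fold above Rad21 (1.58 to 2.29), Rad21 1.21-fold above Nipbl (1.02 to 1.43), and Nipbl and Smc1a did not differ beyond counting error (1.002-fold, 0.823 to 1.23). Smc3 stood 5.72-fold above Ctcf (5.04 to 6.52), Nipbl 2.03-fold above Smc1a (1.67 to 2.48) and Smc1a 2.83-fold above Wapl (2.05 to 3.96). The median log2(FPKM + 1) of the 10 genes was 3.34 in replicate 1 and 0 in replicate 2, while that of all protein-coding genes was 0 in both. In samples of a few cells, fewer cells that express a gene and less RNA per cell cannot be told apart.

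Where the counts of a gene came from differed between the members. Of 67 IDs placed in the 10 genes, 10 had a count in at least 1 library. The 31 protein accessions, which stand for coding transcripts, held 2888 of the 2916 counts in replicate 1 (99.04%), and the 36 Ensembl IDs held 28. A single accession carried the counts of Ctcf (273 of 275), Rad21, Smc1a, Smc3 and Nipbl. Wapl had 36 counts on an accession and 18 on a non-coding processed transcript. The counts of Pds5a lay outside its accessions, with 8 in replicate 1 on one transcript with a retained intron and 1 in replicate 2 on another.

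The members differed in how much of their sequence belongs to 1 transcript only, called own bases here, and few counts fell on IDs without any. Among 10296 Ensembl IDs without own bases, counts were seen for 3 in replicate 1 (0.0291%) and for 0 in replicate 2, against 10.1% and 3.33% of the 64759 IDs with at least 1 own base. In the GENCODE M21 annotation, the longest coding transcript of Nipbl is the sole transcript of the gene, and all of its 9423 bases are its own. Own bases numbered 4375 of 4851 for Smc3, 3444 of 3956 for Rad21, 1958 of 6351 for Wapl, 1855 of 3782 for Ctcf and 1769 of 4691 for Smc1a. These 6 genes each had at least 3 counts on an accession in replicate 1. The longest coding transcript of Stag1 (6186 bases) and that of Mau2 (5369 bases) had 0 own bases, that of Pds5a had 3 of 8934 and that of Stag2 had 206 of 6171, and the accessions of these 4 genes were at 0. Summed over every transcript with a coding sequence, targets of nonsense-mediated decay included, own bases numbered 1464 in Stag1, 732 in Stag2, 18 in Mau2 and 3 in Pds5a, so that Stag1 and Stag2 were at 0 with some own sequence present. Among protein-coding genes, 13.8% of 3227 with under 100 own bases in the longest coding transcript, 27.3% of 4359 with 100 to under 1000 and 46.0% of 6119 with 1000 or more had at least 3 counts on accessions. Stag1, Stag2, Mau2 and Pds5a were thus the members whose longest coding transcript had the fewest own bases and those with no count on accessions, and their 0 does not show that they were silent. Over all exons of the gene the members were not split in this way. Bases of 1 transcript only then numbered 9739 in Pds5a, 5396 in Stag1, 3389 in Mau2 and 2103 in Stag2, against 2847 in Smc1a and 2230 in Wapl. Retained-intron IDs with 1515 own bases in Stag1, 1261 in Stag2 and 2367 in Mau2 were also at 0 in both libraries. The part of own bases in these zeros was not tested.

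For Mau2 and Stag2, the own stretches that lie wholly in coding sequence are printed here, 1 for each gene, to show how little coding sequence is unique to 1 transcript. In Mau2, 1 coding transcript has 18 bases that no other transcript has, which span a splice junction on the minus strand (chromosome 8, 70042389 to 70042391 and 70039303 to 70039317, GRCm38). They are shown in capitals between the 30 bases before and after them in the transcript. In Stag2, the longest coding transcript has an exon of 111 coding bases of its own (chromosome X, 42266366 to 42266476, plus strand), which is included whole and in capitals. Both are written 5′ to 3′ from the GENCODE M21 transcripts.
Mau2: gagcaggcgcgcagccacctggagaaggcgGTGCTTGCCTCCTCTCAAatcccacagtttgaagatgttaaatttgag
Stag2: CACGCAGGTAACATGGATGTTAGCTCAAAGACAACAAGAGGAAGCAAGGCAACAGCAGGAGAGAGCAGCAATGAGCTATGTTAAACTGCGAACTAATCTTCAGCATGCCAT
Exact matches in transcripts of other genes, on either strand, were searched for as well. Of the 31-base words of the longest coding transcript, 3.28% of those of Pds5a, 3.19% of those of Smc3 (154 of 4821), 2.42% of those of Mau2, 0.456% of those of Stag2 and 0.28% of those of Rad21 also occurred in transcripts of other genes, and none of those of Ctcf, Smc1a, Stag1, Nipbl and Wapl did. The shared words of Mau2 were spread over 2128 other genes and those of Stag2 over 181, against 5 for Pds5a, 3 for Smc3 and 2 for Rad21.

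**Figure D2:**
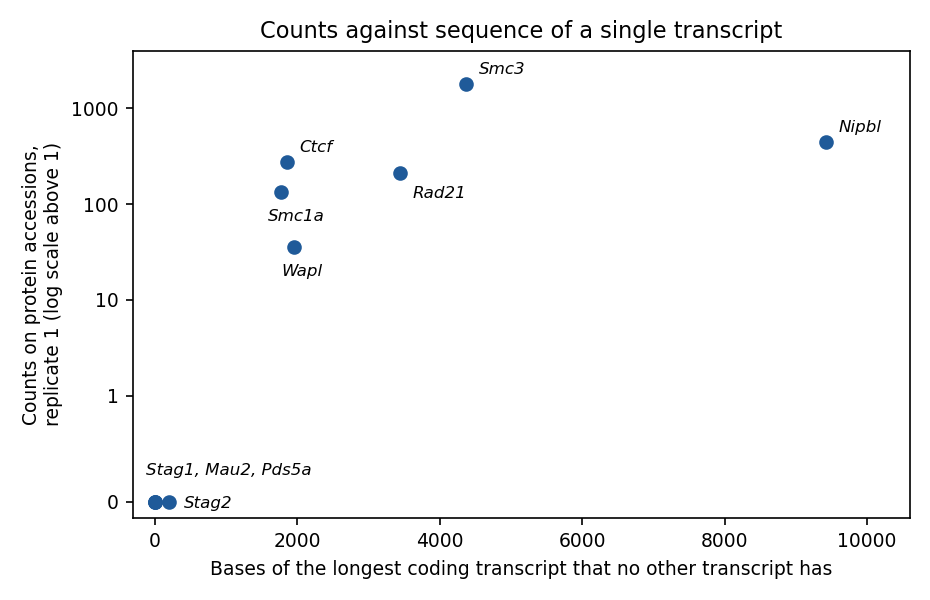
Counts on protein accessions in replicate 1 (y axis, logarithmic above 1) against the bases of the longest coding transcript that no other transcript has (x axis), 1 point per gene. The 6 genes with 1769 to 9423 own bases have 36 to 1795 counts, and the 4 genes with 0 to 206 own bases have none.

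When the counts on accessions were divided by own bases in place of all exon bases, a length chosen after the values had been seen, Smc3 remained highest with 270.4 CPM per kilobase of own bases. Ctcf followed with 97.0, Smc1a with 49.6, Rad21 with 40.2, Nipbl with 30.9 and Wapl with 12.1. Smc1a, which stood below Rad21 and Nipbl per kilobase of exon, stood above them on this scale. Per kilobase of exon of 1 transcript only, with all IDs, it did not, at 30.8 against 37.2 for Rad21 and 30.9 for Nipbl. Per kilobase of own bases, Smc3 stood 2.79-fold above Ctcf (95% interval 2.45 to 3.18) and Ctcf 1.96-fold above Smc1a (1.58 to 2.43). Smc3 was 5.46-fold above Smc1a (4.57 to 6.56) and 6.73-fold above Rad21 (5.83 to 7.80). Smc1a and Rad21 did not differ beyond counting error (1.23-fold, 0.985 to 1.54), whereas Rad21 stood 1.30-fold above Nipbl (1.10 to 1.54) and Nipbl 2.54-fold above Wapl (1.81 to 3.68). The places of Smc3 as highest and Wapl as lowest of these 6 genes were the same with either length, and the order between them was not.

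**Figure D3:**
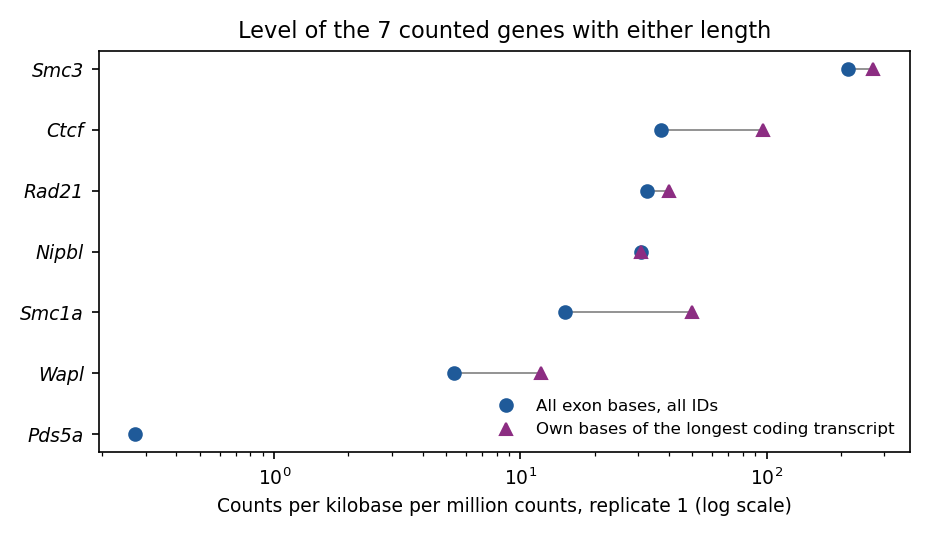
Level of the 7 counted genes in replicate 1, as CPM per kilobase on a logarithmic axis, with all exon bases (circles) and with own bases of the longest coding transcript (triangles; none for Pds5a). Ctcf and Smc1a move most, from 37.3 to 97.0 and from 15.2 to 49.6, and Smc3 stays rightmost.

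Whether the 2 libraries differed in the share of counts of each gene was examined with Fisher's exact test on the counts, two-sided, over 11966 genes with a count in either library. It compares these 2 libraries and not conditions, and PCR duplicates, which the counts do not mark, can make its p-values too small. After Benjamini-Hochberg adjustment 19.6% of the genes differed, of which 212, or 1.77% of all tested, had the larger share in replicate 1. When only genes with at least 3 counts over both libraries were tested, 1149 of 7603 differed in place of 2343 of 11966. Part of the 19.6% thus rested on genes with fewer than 3 counts. None of the 7 counted members passed Fisher's exact test (lowest adjusted p = 0.293, for Pds5a), and 0 had an unadjusted p under 0.05. Pds5a alone had the larger CPM in replicate 2, by 15.2-fold (95% interval 0.344 to 114). This rested on 1 count, where the share of replicate 1 would have given 0.0656. At the share of replicate 1, replicate 2 would have held 14.7 counts of Smc3, 3.62 of Nipbl, 2.26 of Ctcf, 1.72 of Rad21 and 1.09 of Smc1a, against the 11, 1, 0, 0 and 0 observed. For Ctcf, Rad21 and Smc1a these numbers lay under 3 counts, and for Wapl, also at 0, the number was 0.443. A count of 0 is the lowest possible, and Fisher's exact test gave p = 0.182 for Ctcf, 0.425 for Rad21 and 0.632 for Smc1a. At these library totals the test could thus not call a smaller share of these genes in replicate 2. All 10 genes together had 0.544 times the CPM in replicate 2 that they had in replicate 1 (95% interval 0.289 to 0.931). Without Smc3, the other 9 genes held 739 CPM in replicate 1 (95% Wilson interval 697 to 783) and 161 CPM in replicate 2 (44.1 to 586, from 2 counts, where the share of replicate 1 would have given 9.19).
This result depended on the scaling. With edgeR TMM library sizes or DESeq2 size factors, the depth ratio of the libraries became 13.3 or 13.5 in place of 122, which moved every comparison by 3.19 or 3.18 on the log2 scale. Smc3, Nipbl, Ctcf, Rad21 and Smc1a were then lower in replicate 2 by Fisher's exact test, with adjusted p-values from 2.65e-39 to 0.000764. Of all genes tested, 26.3% and 26.1% differed under these scalings, and 18.1% and 18.0% of all tested were lower in replicate 2. Both scalings rest on the 1650 genes counted in both libraries, and thus on genes that have at least 1 count at the depth of replicate 2.

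Related complexes give the setting for these values, and they were examined as lists of counts in replicate 1 beside the 36.0% of protein-coding genes with at least 3 counts.
The meiotic cohesin subunits Rec8, Smc1b, Stag3 and Rad21l, which replace Rad21, Smc1a and Stag1 or Stag2 in meiosis, were all listed at 0 in both libraries. Of their exon bases, 71.3% of Rec8 and 91.7% of Smc1b belong to 1 transcript only, compared with 25.5% of Stag3 and 0.542% of Rad21l. Own bases of their coding transcripts were not tabulated.
Of 9 further regulators of cohesin, 7 reached 3 counts in replicate 1 and none did in replicate 2. Sgo1, which guards centromeric cohesin, had 172 counts, and its relative Sgo2a had 72. Esco2 and Esco1, the acetyltransferases that lock cohesin on DNA by modifying SMC3, had 166 and 151. Exon bases of 1 transcript only made up 73% of Esco2 and 10.4% of Esco1. Pds5b, the paralog of Pds5a, and Pttg1, the securin gene, were at 0.
Of 8 condensin genes, which compact chromosomes in mitosis, 6 reached 3 counts. Smc2 with 410, Ncapg2 with 317 and Ncapg with 315 exceeded the other members of these complexes, and Smc4 and Ncapd2 had 6 counts each. Of exon bases, 1.35% of Smc2, 82.2% of Ncapg2 and 32.4% of Ncapg belong to 1 transcript only, compared with 21.6% of Smc4 and 34.5% of Ncapd2. Of 6 genes of the SMC5/6 complex, which acts in DNA repair, 5 reached 3 counts, with Nsmce3 at 404, Nsmce1 at 246, Nsmce4a at 110 and Smc6 at 91. Nsmce2 had 0 counts on IDs of its own and 1296 on IDs that could belong to another gene. Among 6 other architectural or zinc finger factors, Yy1 had 215 counts, Zfp143 had 211 and Maz had 12, and Ctcfl, the germline paralog of Ctcf, had 0 in replicate 1 and 1 in replicate 2. Exon bases of 1 transcript only made up 92.6% of Yy1, 10.8% of Zfp143, 16.2% of Maz and 1.34% of Ctcfl. In replicate 2, no gene of these 5 lists reached 3 counts. Per group, the median log2(FPKM + 1) in replicate 1 was 3.54 for SMC5/6, 2.78 for the further regulators, 0.935 for the other factors, 0.76 for condensin and 0 for meiotic cohesin, against 3.34 for CTCF and mitotic cohesin.

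**Figure D4:**
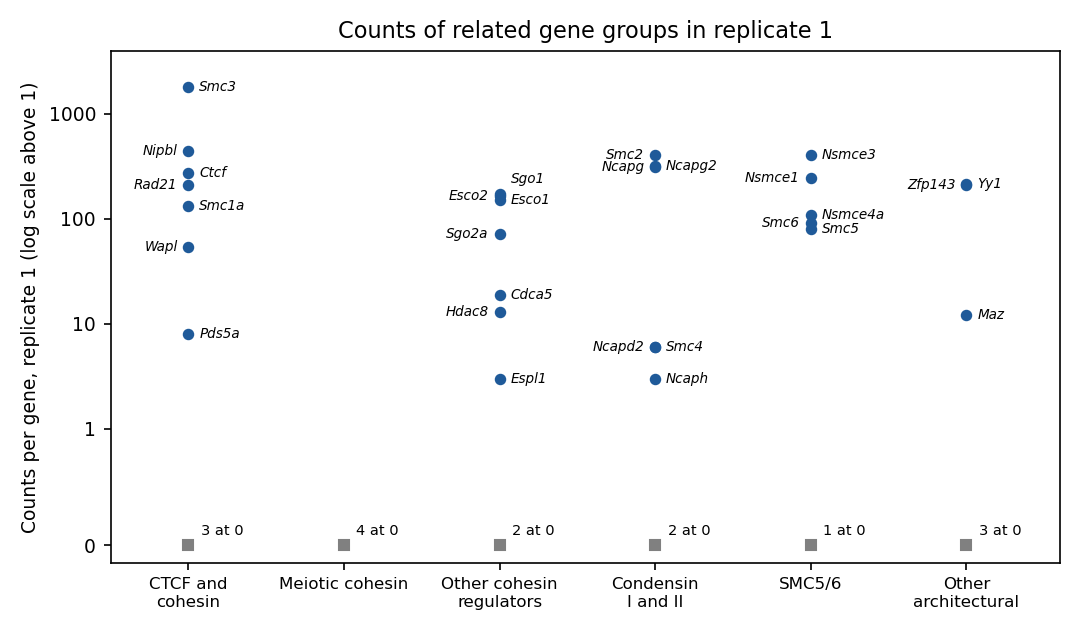
Counts per gene in replicate 1 (y axis, logarithmic above 1) for CTCF and mitotic cohesin and for 5 lists of related genes; each circle is a gene and each grey square gives the number of genes at 0. Smc3 with 1795 counts lies above every gene of the other lists, and all 4 meiotic cohesin genes lie at 0.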

How the data were processed

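For each of the 2 libraries, the deposited files hold raw counts per ID as whole numbers, neither normalized nor pooled by the authors. The submitters' processing notes name FastQC, Trim Galore, HISAT2 2.2.1 and featureCounts on mm10, whereas the paper's methods name TopHat and Cufflinks with FPKM as the unit; the gene annotation is not given in the sources used here. FPKM was therefore computed from the deposited counts with the exons of GENCODE M21 (GRCm38). Protein accessions were placed in genes by their order between annotated transcripts. This was checked by hiding 50% of the annotated Ensembl IDs in the first block of the list and deleting 20% of the hidden ones. A single gene was returned for 16477 and it was correct for 99.95%. The placing of the protein accessions themselves, which held 2888 of the 2916 counts of the members in replicate 1, was not checked directly. Both libraries form 1 group, so only Fisher's exact test between libraries was run (threshold 0.05). Its trial on simulated data had no PCR duplicates and shifted only genes with many counts, so it does not cover changes in members with few counts. The members and lists were chosen with earlier results of these data known. Named genes were all members, up to 4 genes with most counts per list and those with 3 counts in replicate 2. List genes named at 0, at under 3 counts or for doubtful IDs were chosen after their values were seen. Own bases were exon bases covered by 1 transcript, strand ignored. Alternatives were another ID set, count minimum, pseudocount, length, scaling and library total. Python 3.11.15, scipy 1.17.1, R 4.3.3, edgeR 4.0.16 and DESeq2 1.42.0 were used.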

Additional observations from a re-analysis of the deposited data

How the results depend on the processing

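With only Ensembl IDs, 2 in place of 7 genes reached 3 counts in replicate 1 or in either library, 0 in place of 1 in replicate 2, the share of counts fell to 18.5 CPM in replicate 1 and 80.4 CPM in replicate 2, and the median level in replicate 1 became 0, because the accessions held nearly all counts. With a minimum of 1 count, 3 genes were shown in replicate 2. The share was 2181 CPM in replicate 1 without the mitochondrial genome, and 739 and 161 CPM in replicates 1 and 2 without Smc3, an alternative added after seeing the data. The median log2 level in replicate 2 was -3.32 with a pseudocount of 0.1 and 7.33 when only Smc3, the gene with 3 counts, was kept. The libraries differed in 1149 genes in place of 2343 when only genes with at least 3 counts over both were tested, and in 5 members in place of 0 with TMM or DESeq2 scaling, which called 3142 or 3126 genes in all. With exon bases of 1 transcript only as the length, the level in replicate 1 went from 37.3 to 70.7 for Ctcf, 15.2 to 30.8 for Smc1a, 5.37 to 16.0 for Wapl and 0.273 to 0.541 for Pds5a. Without one replicate, 1 to 7 genes reached 3 counts (7 with both), the share was 1045 to 1922 CPM (mean 1483) and the median level 0 to 3.34 (1.68). Adding the counts of IDs of several genes changed no value of the members. With 12442 counts in replicate 2, a gene under 241 CPM was below 3 counts there. No paired analysis was possible because the study has a single group of samples.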
